A study of Mus musculus with 24 samples.

Results

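Genes of gland secretion were followed in gingiva and in the dentoalveolar complex of mice with periodontitis. The set was defined by gene name, and was chosen with earlier results of these data known. It takes protein-coding genes whose symbol begins with Bpifa, Bpifb or Bpifc, or with Muc, Obp, Lcn, Scgb or Aqp and a number. The single genes Gp2, Dmbt1, Pigr, Lpo, Prol1 and Smgc belong to it too. The annotation holds 91 such genes, and 80 were among the 38321 gene IDs of the tables. The other 11, among them Smgc, Aqp5, Muc4, Muc13 and Scgb1a1, are not analysed here. Of the 80, 61 had a count in at least 1 library and 19 had none in any, including Prol1, Lcn5, Lcn9 and Lcn10. They comprise 14 BPI-fold genes, 14 lipocalins, 9 mucins, 31 secretoglobins, 7 aquaporins and 5 single genes.

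All libraries came from wild-type female C57BL/6J mice that were 11 weeks old at the start. In every group a silk ligature was tied around the upper second molars on day 7 and tissue was taken on day 14. The OVXE2 group had both ovaries removed on day 0 and received 1 µg estradiol benzoate a day in 100 µL corn oil from day 4. The OVX group had the same surgery and vehicle, and the Sham group had a sham operation and vehicle. Each group gave 4 libraries of the dentoalveolar complex (DAC: bone around the upper molars and the teeth in it, freed of soft tissue) and 4 of gingiva, 24 in all. The 4 are called biological replicates; whether each is 1 animal, and whether both tissues came from the same animals, is not given in the sources used here, so p-values measure the spread between these samples.

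Mucins are long glycosylated proteins that either form the gel of saliva and airway mucus or stay in the cell membrane. BPI-fold proteins and lipocalins carry lipids and odorants in nasal and oral secretions, and the odorant-binding lipocalins of the mouse come from glands of the nasal cavity. Secretoglobins are small secreted dimers, of which the Scgb1b and Scgb2b genes of the mouse encode the androgen-binding proteins of saliva and tears. Aquaporins are water and glycerol channels and are found outside glands too.

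Levels are given as CPM, a gene's count scaled by the total of gene counts in its library. Total gene counts ran from 14771830 to 29248358 in the DAC, where Sham 2 was the shallowest, and from 18598422 to 26001342 in gingiva. The labelled tissues carried their markers: 14 bone and tooth genes held 6.24 to 9.10% of counts in the DAC and 0.193 to 0.597% in gingiva, and 8 gingival epithelial genes held 0.106 to 0.900% in the DAC and 8.50 to 11.6% in gingiva. Between 3.38 and 9.03% of strand-assigned reads lay on the strand not counted, under 5% in 8 libraries and over 5% in 16. The 8 hold only 1 or 2 libraries of each group and tissue, too few for a test; values within the 16 are given where they change a call or a direction. In whole tissue, fewer cells of a type and less RNA per cell cannot be told apart.

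Promoters are shown for Bpifb9a and Bpifb9b and for Obp2a and Obp2b, gene pairs on chromosome 2 whose promoter windows are nearly identical. The windows run from 250 bases before to 50 after the annotated start (RefSeq, GRCm38.p6, plus strand), at chr2:154257629-154257928 for Bpifb9a, chr2:154306994-154307293 for Bpifb9b, chr2:25699824-25700123 for Obp2a and chr2:25736757-25737056 for Obp2b. Capitals mark aligned bases that differ within a pair; bases opposite an alignment gap stay in lower case.
Bpifb9a: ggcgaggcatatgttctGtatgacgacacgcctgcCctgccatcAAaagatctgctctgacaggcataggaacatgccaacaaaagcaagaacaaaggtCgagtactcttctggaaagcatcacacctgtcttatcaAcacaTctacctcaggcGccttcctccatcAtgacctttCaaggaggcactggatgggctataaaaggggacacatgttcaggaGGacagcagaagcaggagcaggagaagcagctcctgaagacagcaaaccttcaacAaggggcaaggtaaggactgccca
Bpifb9b: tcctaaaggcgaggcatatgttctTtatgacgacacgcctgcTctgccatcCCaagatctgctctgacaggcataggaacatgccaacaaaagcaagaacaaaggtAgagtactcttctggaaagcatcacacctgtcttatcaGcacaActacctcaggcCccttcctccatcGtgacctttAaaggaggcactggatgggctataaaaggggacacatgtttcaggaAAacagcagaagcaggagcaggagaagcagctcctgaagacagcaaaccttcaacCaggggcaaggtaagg
Obp2a: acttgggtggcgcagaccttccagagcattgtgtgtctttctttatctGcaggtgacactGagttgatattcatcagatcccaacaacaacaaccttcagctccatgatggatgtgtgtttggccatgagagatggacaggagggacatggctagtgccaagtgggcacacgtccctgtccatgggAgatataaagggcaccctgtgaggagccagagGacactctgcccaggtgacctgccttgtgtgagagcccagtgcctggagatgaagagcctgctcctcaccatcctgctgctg
Obp2b: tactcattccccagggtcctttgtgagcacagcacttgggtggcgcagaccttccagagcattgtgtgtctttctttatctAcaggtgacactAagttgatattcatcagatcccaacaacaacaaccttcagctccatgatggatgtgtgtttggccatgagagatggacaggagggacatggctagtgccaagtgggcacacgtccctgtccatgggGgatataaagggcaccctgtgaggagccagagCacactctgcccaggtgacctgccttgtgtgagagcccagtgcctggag
Bpifb9a and Bpifb9b were identical at 279 of 292 aligned bases, and Obp2a and Obp2b at 263 of 267. Each of the 4 windows holds TATAAA, beginning at base -54, -47, -61 and -28 relative to the annotated start in Bpifb9a, Bpifb9b, Obp2a and Obp2b. That motif, searched on the gene's strand, was in 23 of 72 promoter windows of 68 members with an entry (31.9%), against 2733 of 32851 windows of all genes (8.32%); on either strand it was in 40.3% of member windows and 13.6% of all. The palindromic estrogen response element, GGTCA and TGACC with any 3 bases between, was in 0 of the 72 and in 0.0700% of all windows. The transcripts of Bpifb9a and Bpifb9b were identical at 2051 of 2065 aligned bases (99.3%), so the split of reads between these 2 genes is uncertain; Obp1a and Obp1b shared 73.7%, and Obp2a and Obp2b 75.9%.

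Gland secretion genes held 0.405 to 14.2% of all counts in DAC libraries and 0.276 to 1.71% in gingival libraries. In the DAC the shares were 0.532, 1.09, 0.731 and 0.978% in OVXE2, 14.2, 1.94, 0.405 and 0.712% in OVX, and 2.43, 0.576, 2.73 and 2.04% in Sham (replicates 1 to 4). OVX 1 stood far above the other 11, and OVX also held the lowest library, so the groups overlapped. In gingiva they were 0.649, 0.487, 1.54 and 1.23% in OVXE2, 0.680, 0.276, 0.443 and 0.754% in OVX, and 0.612, 0.699, 1.71 and 1.30% in Sham, again with overlap. In DAC OVX 1 Bpifb9b alone took 9.43% of gene counts and Bpifb9a 2.46%; in gingiva Sham 3 Muc5b took 1.05%. No other member reached 1% of a library. Obp1a, Obp1b, Obp2a, Obp2b and Lcn11 together made up a median of 61.7% of the members' counts in the DAC (14.2 to 89.1%) and 0.123% in gingiva. Bpifb9a and Bpifb9b made up a median of 17.1% in the DAC (3.07 to 83.7%) and 0.130% in gingiva. For Muc5b, Bpifb2, Gp2 and Aqp3 the median was 0.787% in the DAC and 89.8% in gingiva.

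**Figure D1:**
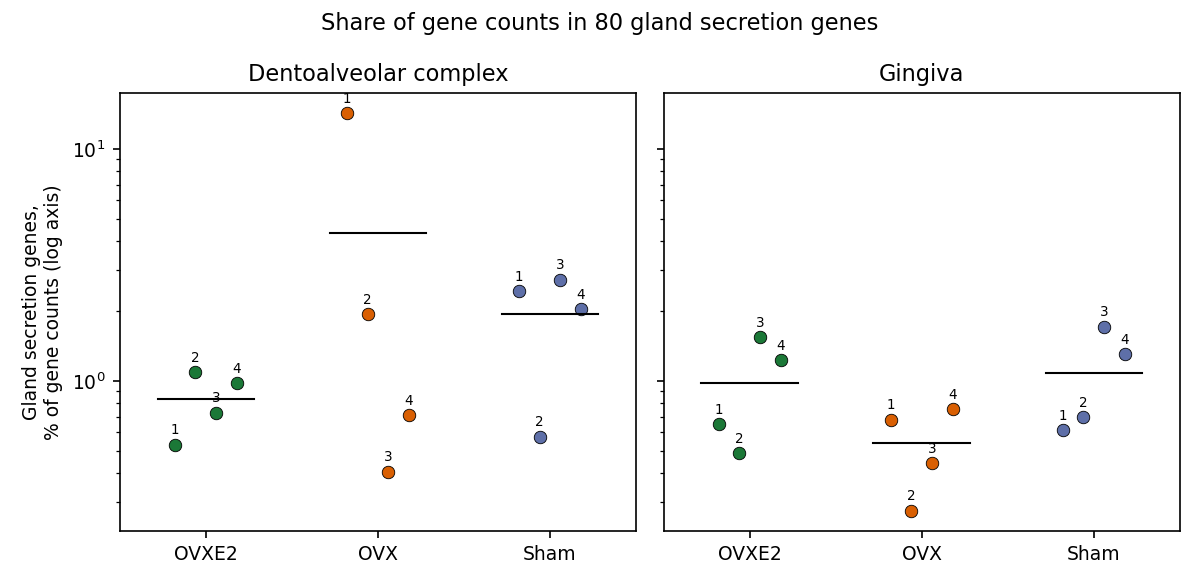
Share of gene counts held by the 80 genes in each library, on a log axis, for the dentoalveolar complex (left) and gingiva (right). Points are libraries numbered by replicate and lines are group means; OVX 1 of the dentoalveolar complex, at 14.2%, lies above every other library.

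The 2 tissues carried different sets of secretory genes. Members tested in a fit of all 24 libraries numbered 43; a member that passed the filter on low counts only through the tissue where it was high had to differ. With edgeR's quasi-likelihood test at an adjusted p under 0.05, the DAC was higher than gingiva for 25 and lower for 10 in Sham, higher for 26 and lower for 8 in OVX, and higher for 25 and lower for 13 in OVXE2. Of all 14209 genes, 75.1%, 72.4% and 72.1% were called in Sham, OVX and OVXE2 (39.7% higher and 35.4% lower in Sham, 38.1% and 34.2% in OVX, 38.0% and 34.1% in OVXE2). The members' shares were 81.4%, 79.1% and 88.4% of 43, and nothing is read from their distance to that background. The median log2 difference of the members tested was 2.29 in Sham, 2.63 in OVX and 1.95 in OVXE2, against 0.07, 0.06 and 0.03 over all genes tested.

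Odorant-binding proteins led the DAC side in some libraries and Bpifb9b in others. Obp1a (chromosome X, 78085505 to 78091374) had 840, 2045, 2010 and 3531 CPM in DAC OVXE2, 8280, 2441, 795 and 2017 in DAC OVX, and 6253, 498, 8693 and 5993 in DAC Sham. Its gingival values lay between 1.09 and 6.46 CPM over all 12 libraries, so no DAC library came near a gingival one. The log2 difference was 9.97 ± 1.02 (SE) in Sham, 10.18 ± 1.04 in OVX and 9.26 ± 1.00 in OVXE2, with adjusted p of 1.91e-08, 1.99e-08 and 4.75e-08 (edgeR). Obp1b, its homologue on the same chromosome, differed by 10.06, 10.04 and 9.19, and Obp2a by 10.36, 10.08 and 8.96 in the same order. Lcn11, a lipocalin gene near Obp2a and Obp2b, differed by 9.95, 10.33 and 9.36. Without DAC OVX 1 the differences in OVX were smaller, 9.17 for Obp1a, 9.17 for Obp1b, 8.78 for Obp2a and 9.50 for Lcn11. Without gingiva OVXE2 4 they were larger in OVXE2, 9.86 for Obp1a and 10.19 for Lcn11. Per kb of exon the 3 highest lipocalins of the DAC were Obp1a, Obp1b and Obp2a, at 4777, 2894 and 2671 mean CPM per kb.

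Lcn3 and Lcn4 encode vomeronasal secretory lipocalins. Lcn3 had 15.7, 2.65, 3.92 and 26.7 CPM in DAC OVXE2, 6.11, 7.05, 1.64 and 7.52 in DAC OVX, and 8.83, 8.12, 14.8 and 9.24 in DAC Sham, and was at 0 in every gingival OVXE2 library. Against the floor of 3 counts over those 4 gingival libraries, it was at least 397-fold higher in DAC OVXE2. In the other groups a few gingival libraries held Lcn3 counts, up to 0.399 CPM. Lcn4 had 496, 143 and 81 counts over the 4 DAC libraries of OVXE2, OVX and Sham, against 1, 0 and 4 in gingiva, too few there for a fold; against the floor of 3 counts it was at least 40.8-fold higher in DAC OVX. It passed the test in all 3 groups and missed it in OVXE2 among the 16 libraries of higher opposite-strand share (adjusted p 0.0629, edgeR, the highest over the alternatives, the lowest being 1.16e-05). Lcn2, the siderophore-binding lipocalin of neutrophil granules and inflamed epithelium, was the one member of the family abundant in both tissues, with 230 to 644 CPM in the DAC and 14.6 to 64.6 CPM in gingiva. Its log2 difference was 2.27 ± 0.30 in OVXE2, 3.27 ± 0.31 in OVX and 3.44 ± 0.31 in Sham (adjusted p 6.79e-07, 5.61e-09 and 2.46e-09, edgeR).

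**Figure D2:**
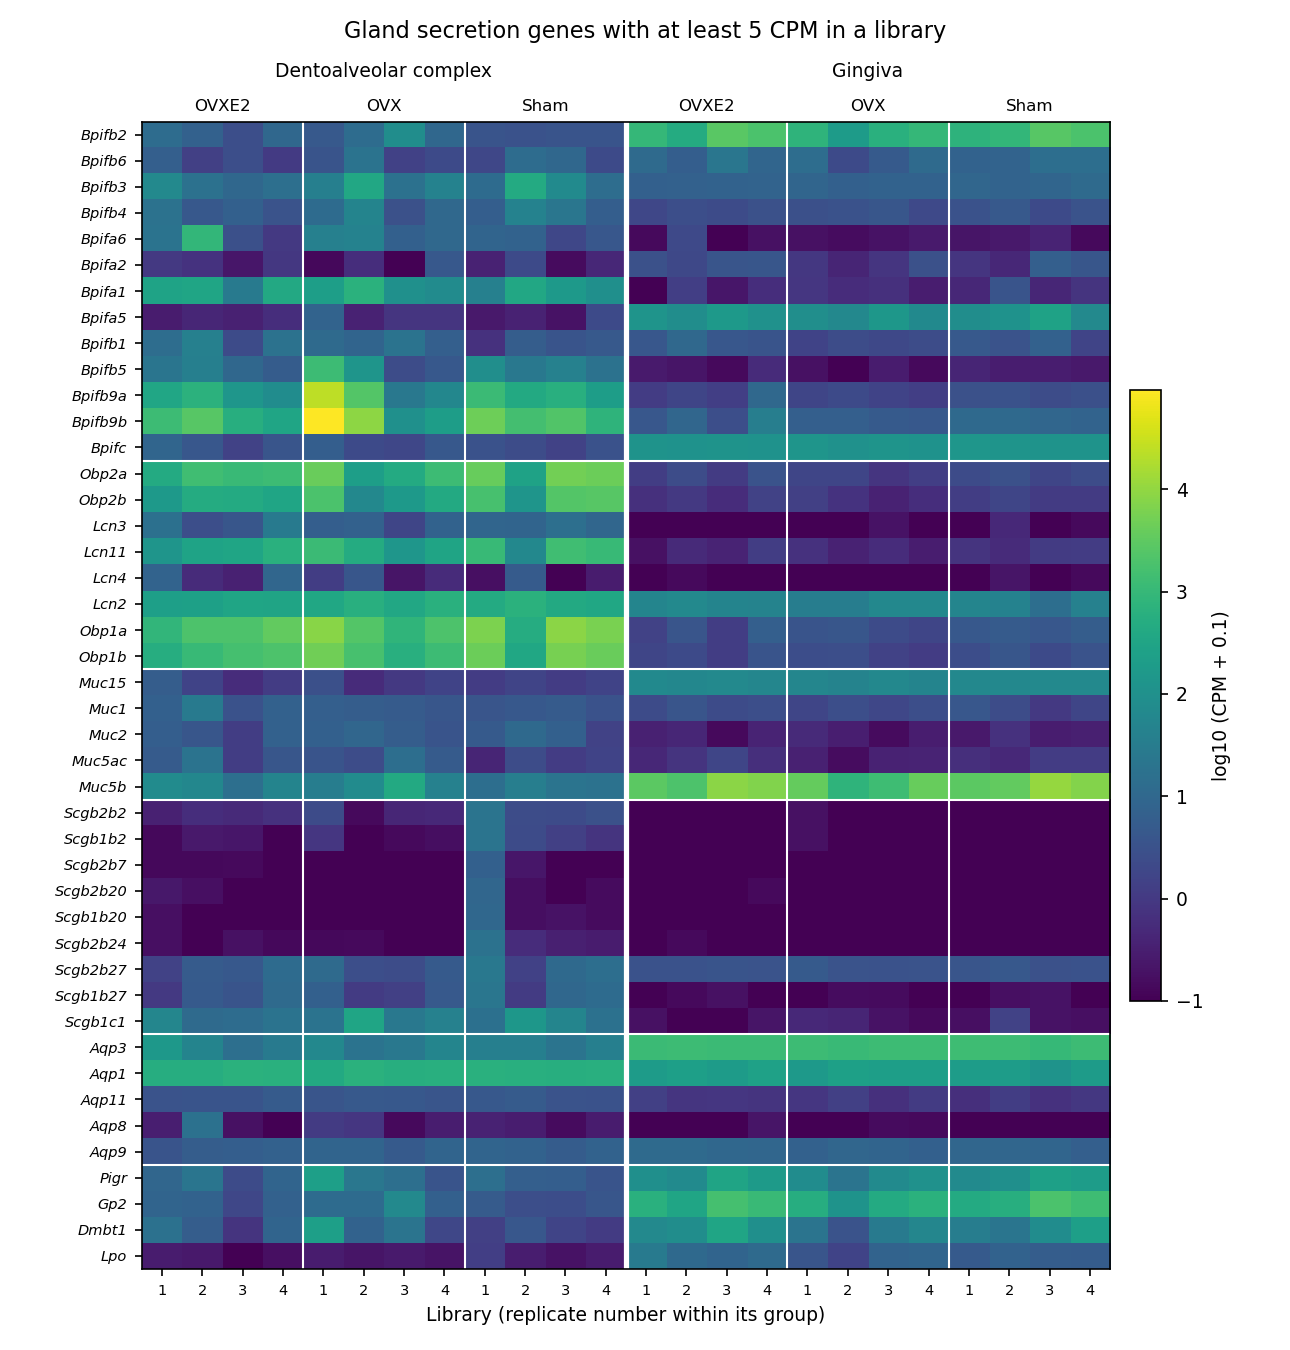
Members with at least 5 CPM in a library (rows, by family) across the 24 libraries (columns, by tissue, group and replicate), coloured by log10 of CPM plus 0.1. Odorant-binding lipocalins, Bpifb9a, Bpifb9b, Bpifb5 and Bpifa1 are bright on the side of the dentoalveolar complex; Muc5b, Bpifb2, Gp2, Bpifa5, Aqp3 and Muc15 are bright on the gingival side.

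The BPI-fold family was split between the tissues, although 13 of its 14 genes lie side by side on chromosome 2 (153875045 to 154320646, 446 kb). Bpifb9b, a gene of the vomeromodulin group of nasal gland proteins, had 1276, 2586, 544 and 328 CPM in DAC OVXE2, 94311, 9057, 99.3 and 216 in DAC OVX, and 4501, 1566, 2311 and 781 in DAC Sham. Its 12 gingival values ran from 2.59 to 36.6 CPM. Bpifb9b was higher in the DAC by 6.39 ± 1.54 log2 units in OVXE2, 12.19 ± 1.93 in OVX and 7.68 ± 1.63 in Sham (adjusted p 0.000928, 9.71e-06 and 0.000249, edgeR), and the value in OVX was 9.09 without OVX 1. Bpifb5 differed by 6.43, 11.94 and 7.47 in OVXE2, OVX and Sham, and in OVX by 8.99 without DAC OVX 1 and 12.69 without gingiva OVX 3. The gingival OVX libraries held 2, 0, 4 and 1 counts of Bpifb5, too few for a firm fold. Bpifa1, the short palate, lung and nasal epithelium clone protein, had 26.8 to 653 CPM in the DAC and 0 to 3.43 CPM in gingiva, with a log2 difference of 9.05, 8.95 and 6.89 in OVXE2, OVX and Sham. Bpifa6 was called in OVXE2 at 8.65, and the size of that difference rested on 1 library. Without OVXE2 2 of the DAC the difference was 3.70, still past the test, and without gingiva OVXE2 2 it was 12.19. The gingival OVXE2 libraries held 1, 49, 0 and 2 counts of Bpifa6, too few without OVXE2 2 for a firm fold. DESeq2 also called Bpifa6 in OVX (7.93, adjusted p 2.38e-07) and in Sham (4.94, adjusted p 0.0011). Bpifa1 likewise differed by 7.97 in OVX without DAC OVX 2 and by 10.16 in OVXE2 without gingiva OVXE2 2.

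On the gingival side of the same cluster stood Bpifb2 and Bpifa5. Bpifb2 had 12.8, 6.98, 2.57 and 9.85 CPM in DAC OVXE2 against 951, 469, 2726 and 1901 in gingival OVXE2. In OVX the DAC had 4.64, 12.9, 86.8 and 9.88 CPM against 773, 189, 623 and 942 in gingiva, and in Sham 3.53, 3.18, 3.44 and 3.40 CPM against 743, 893, 2672 and 1945. The tissues did not overlap, and the log2 difference was -7.67, -4.62 and -9.04 in OVXE2, OVX and Sham. Without OVX 3 of the DAC it was -6.20 in OVX. Bpifa5 differed by -8.65, -5.29 and -7.85, and Bpifc, which lies apart from the cluster on chromosome 10, by -4.77, -5.12 and -5.81. Without OVX 1 of the DAC, Bpifa5 differed by -7.42 in OVX; in Sham it differed by -9.83 without DAC Sham 4 and by -7.19 without gingiva Sham 3.

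Gel-forming Muc5b of oral and airway mucous glands (chromosome 7, 141839070 to 141873084) was the leading gingival member by counts in 11 of 12 libraries, with Aqp3 first in gingiva OVX 2. It had 75.7, 56.8, 15.2 and 49.6 CPM in DAC OVXE2 against 2945, 2013, 8585 and 7098 in gingival OVXE2, and 14.0, 36.0, 19.9 and 18.1 in DAC Sham against 2875, 3550, 10498 and 7529 in gingival Sham. In OVX the DAC had 33.9, 74.2, 416 and 43.3 CPM against 3573, 781, 1309 and 3943 in gingiva. The log2 difference was -6.83 ± 0.92, -8.33 ± 0.99 and -4.24 ± 0.82 in OVXE2, Sham and OVX (adjusted p 1.17e-06, 1.57e-07 and 9.61e-05, edgeR). Without OVX 3 of the DAC, which held the highest of its 12 values, the difference in OVX was -5.66.

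Its neighbours Muc2 and Muc5ac, the gel-forming mucins of intestine and of airway and stomach surfaces, were low in both tissues. Muc2 had 1.14 to 10.6 CPM in the DAC and 0.0418 to 0.598 CPM in gingiva, and was higher in the DAC by 4.15, 4.67 and 4.08 log2 units in OVXE2, OVX and Sham. Muc15, a membrane mucin, was higher in gingiva, with 46.7 to 69.3 CPM against 0.440 to 5.62 CPM in the DAC, and differed by -4.96, -5.30 and -5.79 in OVXE2, OVX and Sham. Without DAC OVXE2 1 the first was -6.06, and without DAC OVX 1 the second was -5.90. Muc1, another membrane mucin, had 3.03 to 27.7 CPM in the DAC and 0.900 to 4.18 CPM in gingiva; it passed in OVXE2 (1.95) and OVX (1.19) and not in Sham (0.62, adjusted p 0.258, edgeR).

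Single genes of mucosal defence were mostly gingival. Gp2, the zymogen granule glycoprotein that binds bacterial fimbriae, differed by -7.34, -4.33 and -8.43 in OVXE2, OVX and Sham, and by -5.44 in OVX without DAC OVX 3. Lpo, the lactoperoxidase of saliva, differed by -7.18, -5.28 and -3.85, and by -5.33 in Sham without DAC Sham 1. Pigr, the carrier of polymeric immunoglobulins into secretions, passed in OVXE2 (-4.15 ± 1.02) and Sham (-4.50 ± 1.04) and not in OVX (-0.06 ± 0.89, adjusted p 0.953, edgeR), where OVX 1 of the DAC reached 231 CPM. Dmbt1, the salivary agglutinin, showed the same split, with -4.29 ± 1.25 in OVXE2 and -5.78 ± 1.42 in Sham, against 1.31 ± 1.11 in OVX (adjusted p 0.296, edgeR), where OVX 1 held 240 CPM. Left-out libraries moved Dmbt1 to -3.46 without gingiva OVXE2 3, to -4.99 without DAC OVXE2 1 and to -4.77 without gingiva Sham 4, and Pigr to -4.75 without DAC OVXE2 2.

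Secretoglobins and aquaporins divided too. Scgb1c1, a secretoglobin first described from rat olfactory mucosa, had 11.6 to 317 CPM in the DAC and 0 to 1.40 CPM in gingiva. It differed by 8.64, 8.82 and 6.84 in OVXE2, OVX and Sham, by 6.95 in OVX without DAC OVX 2, and in OVXE2 by 7.88 without DAC OVXE2 1 and 9.43 without gingiva OVXE2 4. The gingival OVXE2 libraries held 2, 0, 0 and 3 counts of Scgb1c1, too few for a firm fold. Of the 31 secretoglobins, 29 are Scgb1b and Scgb2b genes on chromosome 7 (31290508 to 34100837). How alike their sequences are was not measured here, and reads may be split or lost among similar ones. Scgb1b27, the salivary androgen-binding protein alpha subunit, with 4 counts over the gingival Sham libraries, was higher in the DAC in Sham by 7.76 ± 1.17 (adjusted p 4.19e-06, edgeR), and by 8.37 without gingiva Sham 3. Scgb2b27, the beta subunit gene beside it, had 1.35 to 25.1 CPM in the DAC and 2.95 to 4.87 CPM in gingiva, the highest gingival secretoglobin per kb. Aqp3, the glycerol channel of keratinocytes, had 15.1 to 153 CPM in the DAC and 1018 to 1349 CPM in gingiva, and differed by -4.42, -5.05 and -5.37 in OVXE2, OVX and Sham, with -5.42 in OVXE2 without DAC OVXE2 1. Aqp1, the water channel of vessels, had 418 to 650 CPM in the DAC and 119 to 256 CPM in gingiva, and was higher in the DAC by 1.31, 1.25 and 1.55.

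Within the DAC, 42 members were tested. None was called between OVX and Sham, between OVXE2 and OVX or between OVXE2 and Sham by edgeR's quasi-likelihood test, against 0.0%, 2.13% and 1.05% of all 13617 genes (0.676% higher and 1.45% lower for OVXE2 against OVX, 0.389% and 0.661% for OVXE2 against Sham). At an unadjusted p under 0.05 there were 9 in each of the 3 comparisons, and DESeq2 called 3, 5 and 3. The median log2 difference of the members tested was 0.24, -0.70 and -0.25, against -0.01, 0.02 and 0.00 over all genes. The comparisons share groups, so their values are not independent.

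Between OVXE2 and OVX, Lcn2 had the smallest adjusted p of the members. It had 230, 247, 323 and 303 CPM in OVXE2, 358, 584, 381 and 631 in OVX, and 444, 644, 417 and 363 in Sham. Every OVXE2 value lay below every OVX and every Sham value, a separation that 6.08% of genes tested showed between OVXE2 and OVX and 4.66% between OVXE2 and Sham, in either direction. The log2 difference was -0.84 ± 0.22 against OVX (adjusted p 0.0806, edgeR; 0.00555, DESeq2) and -0.76 ± 0.21 against Sham (adjusted p 0.194, edgeR; 0.0299, DESeq2). Ltf, lactoferrin of the same neutrophil granules, lay lower beside it, with 285, 413, 310 and 435 CPM in OVXE2, 953, 855, 546 and 881 in OVX, and 591, 962, 577 and 380 in Sham. Ltf passed between OVXE2 and OVX (log2 -1.20 ± 0.26, adjusted p 0.0357, edgeR), and its part in the Lcn2 values was not tested. In gingiva Lcn2 had 51.9, 64.6, 48.4 and 46.6 CPM in OVXE2, 34.5, 33.8, 60.4 and 60.1 in OVX, and 51.9, 43.5, 14.6 and 41.7 in Sham, with overlap.

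Bpifb2, Gp2 and Muc5b, leading genes of gingiva, had their highest DAC values in OVX. Bpifb2 had all 4 OVX values above all 4 Sham values (values above), with a log2 difference of 3.06 ± 0.82 (adjusted p 0.874, edgeR; 0.0258, DESeq2), and 1.43 without OVX 3. Gp2 had 8.38, 7.47, 1.81 and 7.22 CPM in OVXE2, 12.4, 12.3, 63.9 and 6.87 in OVX, and 5.06, 2.57, 2.45 and 3.86 in Sham. OVX lay above Sham without overlap, and the log2 difference was 2.77 ± 0.70 (adjusted p 0.874, edgeR; 0.0188, DESeq2), and 1.61 without OVX 3. Bpifb1 and Muc5ac were also above Sham without overlap, and Lcn3 below; these 5 of 42 stand against 2.4% of all genes. Muc5ac had 5.07, 19.1, 1.10 and 3.92 CPM in OVXE2, 3.43, 2.40, 14.0 and 5.23 in OVX, and 0.321, 2.30, 1.08 and 1.52 in Sham. OVX 3 held the highest value of Bpifb2, Gp2 and Muc5b among the 12 DAC libraries. Gingival epithelial genes held 0.156% of counts in that library, 0.106 to 0.427% across OVX and 0.134 to 0.329% across Sham. A list of 17 gland cell genes outside the set held 0.105% there and 0.0983 to 0.118% across OVX. Ern2, from that list, had 0.904 CPM in OVX 3, 0.910 in OVXE2 2 and 0 to 0.367 in the other DAC libraries. The part of epithelial or gland tissue in these values was not tested.

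Dmbt1 and Bpifb5 were highest in OVX 1. Dmbt1 had 17.2, 5.57, 0.675 and 8.13 CPM in OVXE2, 240, 7.29, 20.3 and 1.74 in OVX, and 1.28, 4.20, 1.60 and 1.01 in Sham, with a log2 difference of 5.20 ± 1.48 between OVX and Sham (adjusted p 0.874, edgeR; 0.0452, DESeq2). Without OVX 1 it was 2.31. Bpifb5 had 21.2, 38.7, 9.66 and 5.38 CPM in OVXE2, 1219, 129, 2.34 and 4.24 in OVX, and 91.6, 25.0, 43.1 and 17.7 in Sham. Both the highest and the lowest Bpifb5 values were in OVX. The log2 difference between OVXE2 and OVX was -4.27 ± 1.61 (adjusted p 0.318, edgeR; 0.0457, DESeq2). Without OVX 1 it was -1.32, and it turned to 2.82 among the 8 DAC libraries of higher opposite-strand share, which leave out OVX 1 and OVX 2 among others.

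Scgb1b2 and Scgb2b2 of the androgen-binding cluster had the smallest adjusted p between OVXE2 and Sham. Scgb1b2 had 0.0367, 0.152, 0.127 and 0 CPM in OVXE2, 0.793, 0, 0.0411 and 0.0684 in OVX, and 20.1, 2.17, 1.27 and 0.690 in Sham. Scgb2b2, whose span on the other strand contains Scgb1b2, had 0.257, 0.493, 0.422 and 0.623 CPM in OVXE2. Its values were 2.23, 0.0400, 0.329 and 0.376 CPM in OVX, and 19.9, 2.37, 2.21 and 2.94 in Sham. OVXE2 lay below Sham without overlap for both. The log2 differences were -6.22 ± 1.53 for Scgb1b2 (adjusted p 0.107, edgeR; 0.000491, DESeq2) and -3.94 ± 1.07 for Scgb2b2 (adjusted p 0.167, edgeR). Without Sham 1 they were -4.04 and -2.49. Sham 1 held the highest value of 10 of the 48 members that reached 1 CPM in the DAC, all but Lpo secretoglobins, and Scgb2b20, Scgb1b20 and Scgb2b24 had 9.31, 9.87 and 17.8 CPM there and at most 0.474 CPM in every other DAC library. Scgb1b27 had 22.03 CPM in Sham 1 and 1.02 CPM in Sham 2, within the 0.882 to 11.7 CPM of OVXE2.

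**Figure D3:**
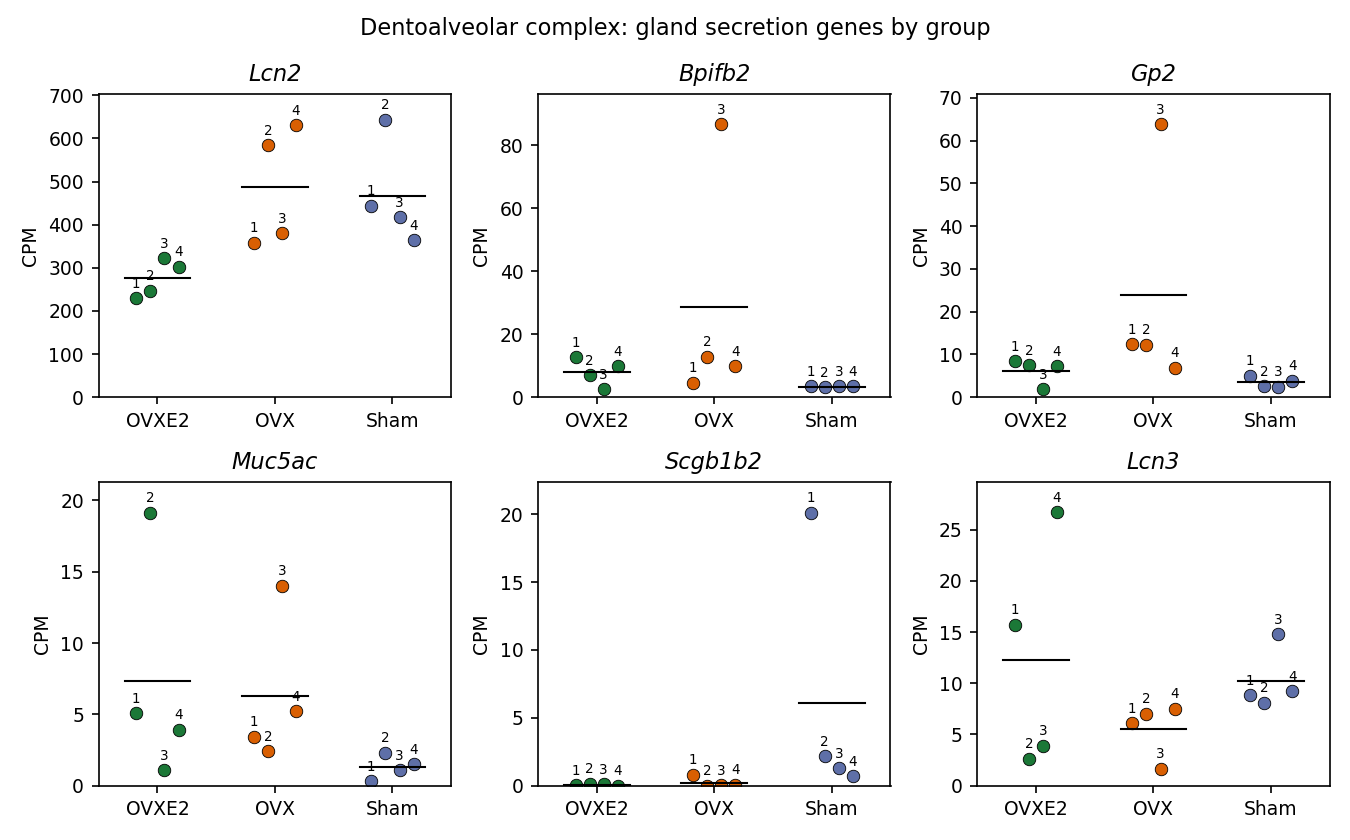
CPM of 6 members in the 12 libraries of the dentoalveolar complex by group, points numbered by replicate, lines at group means. Lcn2 is lower in every OVXE2 library than in every other; Bpifb2 and Gp2 are highest in OVX 3 and Scgb1b2 in Sham 1.

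Within gingiva, 31 members were tested and none was called in any of the 3 comparisons, by edgeR or by DESeq2; edgeR called 0.0% of all 12680 genes in each. At an unadjusted p under 0.05 there were 5 of 31 for OVX against Sham, 6 for OVXE2 against OVX and 3 for OVXE2 against Sham. The shares of all genes at that threshold were 12.1%, 13.9% and 7.41%. The median log2 difference of the members tested was -0.68, 0.38 and -0.07, against 0.01, 0.00 and -0.01 over all genes.

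Mucous gland genes had their lowest gingival mean in OVX, with wide overlap. Muc5b averaged 5160 ± 3178 CPM in OVXE2, 2402 ± 1588 in OVX and 6113 ± 3573 in Sham (SD, n = 4 each), and Bpifb2 1512 ± 1005, 632 ± 323 and 1563 ± 913. Libraries of 1 group differed by more than the group means, as the values above show. Gp2 had 613, 332, 1623 and 1146 CPM in OVXE2, 536, 117, 452 and 638 in OVX, and 441, 557, 1935 and 1309 in Sham. For each of these 3 genes replicates 3 and 4 were above replicates 1 and 2 in OVXE2 and in Sham, and OVX 2 was the lowest library.

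Dmbt1 had 63.3, 83.4, 327 and 92.9 CPM in gingival OVXE2, 19.4, 3.23, 26.7 and 56.6 in OVX, and 34.0, 21.5, 79.4 and 234 in Sham. All OVXE2 values were above all OVX values, as for Bpifb1 and Muc5ac; these 3 of 31 stand against 5.83% of all genes. The log2 difference for Bpifb1, an airway and oral BPI-fold protein, was 1.42 ± 0.47 (adjusted p 0.303, edgeR), and for Muc5ac 1.80 ± 0.57 (adjusted p 0.302), or 1.21 without OVXE2 3. Aqp9, a glycerol channel, had 11.3, 11.6, 9.81 and 9.20 CPM in OVXE2 against 7.19, 9.30, 8.12 and 6.69 in OVX (log2 0.42 ± 0.15, adjusted p 0.304), with 1 pair of values out of order. Lpo had 28.1, 10.7, 8.10 and 11.3 CPM in OVXE2, 3.60, 1.51, 7.83 and 8.64 in OVX, and 4.73, 7.34, 5.55 and 5.31 in Sham. Of the 31 tested, it was the one with every OVXE2 value above every Sham value (log2 1.30 ± 0.50, adjusted p 0.650, edgeR) and Bpifb3 the one with every value below (-0.43 ± 0.13, adjusted p 0.630), against 4.89% of all genes.

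Between OVX and Sham in gingiva, 5 members were lower in OVX without overlap, against 5.32% of all genes. Muc15 had 54.7, 46.7, 60.7 and 49.6 CPM in OVX against 61.2, 62.1, 65.0 and 64.5 in Sham, and 69.3, 58.2, 64.8 and 55.6 in OVXE2; the log2 difference was -0.30 ± 0.09 (adjusted p 0.376, edgeR). Muc5ac was at 0.0538 to 0.291 CPM in OVX and 0.399 to 1.08 CPM in Sham. The other 3 were Bpifb9a, Bpifb9b and Obp1a, genes with their main level in the DAC, at 4.32 to 6.40 CPM in OVX and 8.08 to 11.1 CPM in Sham for Bpifb9b. Scgb3a1, an airway secretoglobin too low to be tested with the filter, had 0.617, 0.369, 0.418 and 0.654 CPM in OVXE2 against 0 to 0.127 in OVX and 0 to 0.115 in Sham; without a filter its adjusted p was 0.286 and 0.350 (edgeR). It was singled out after its values were seen. Aqp3 and Bpifc hardly varied, with highest over lowest ratios of 1.32 and 1.29 over 12 gingival libraries.

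**Figure D4:**
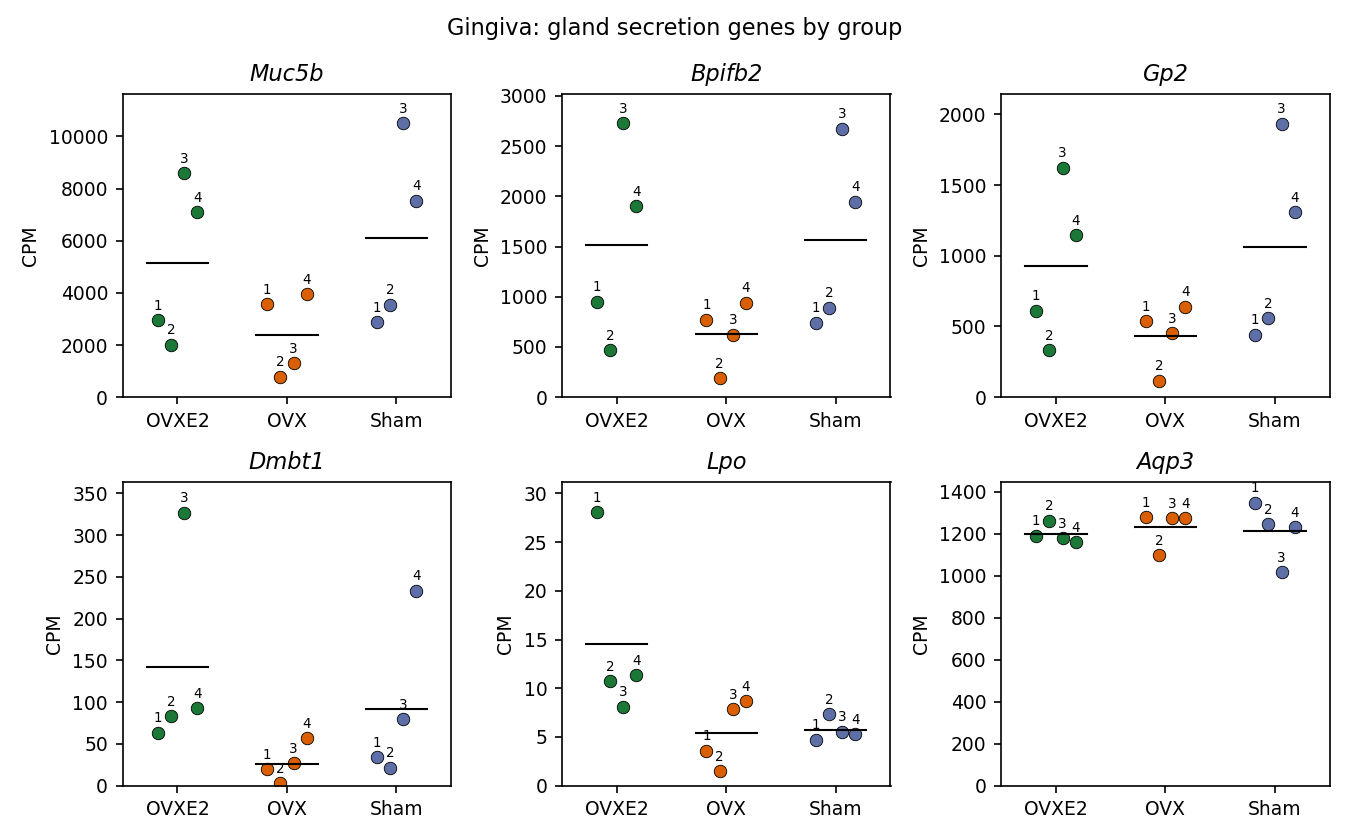
CPM of 6 members in the 12 gingival libraries by group, points numbered by replicate, lines at group means. Muc5b, Bpifb2 and Gp2 are lowest in OVX 2, Lpo is highest in OVXE2 1, and Aqp3 stays between 1018 and 1349 CPM.

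The effects of surgery and hormone were compared between tissues by interaction terms. No member was called for any of the 3 contrasts by edgeR. Of all 14209 genes, 0.0%, 0.19% (0.0704% higher, 0.12% lower) and 0.0633% (0.0352% higher, 0.0282% lower) were called. These shares are for OVX against Sham, OVXE2 against OVX and OVXE2 against Sham, in that order. An unadjusted p under 0.05 was found for 11, 12 and 6 of 43 members, against 8.53%, 8.81% and 7.81% of all genes. DESeq2 called 0, 2 and 0 members, the 2 among 114 genes called. The smallest p values between OVX and Sham belonged to Gp2 (DAC minus gingiva, log2 4.10 ± 0.99), Bpifb2 (4.42 ± 1.08) and Dmbt1 (7.08 ± 1.79), each with an adjusted p of 0.575. Between OVXE2 and OVX, Dmbt1 had -5.59 ± 1.65 (adjusted p 0.267, edgeR; 0.0351, DESeq2) and Bpifb9b -5.80 ± 1.86 (adjusted p 0.357, edgeR; 0.0475, DESeq2). Without DAC OVX 3 the values between OVX and Sham were 2.98 for Gp2 and 2.83 for Bpifb2, and without DAC OVX 1 that for Dmbt1 was 4.18. Without DAC OVX 1 the values between OVXE2 and OVX were -2.69 for Dmbt1 and -2.70 for Bpifb9b. Between OVXE2 and Sham, Lcn2 had -1.17 ± 0.40 (adjusted p 0.503, edgeR). The Bpifb9b value between OVXE2 and OVX turned to 1.56 among libraries of higher opposite-strand share. These leave out, among others, DAC OVX 1 and OVX 2, with 94311 and 9057 CPM of Bpifb9b.

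Some pairs of members, on the same or on different chromosomes, kept close proportions across DAC libraries and others did not. Bpifb9b spanned 950-fold over the 12 libraries while its ratio to Bpifb9a lay between 3.70 and 4.16; these transcripts are 99.3% identical, and how reads were assigned between them is uncertain. Bpifb9b over Bpifb5 lay between 42.4 and 77.3. Obp1a spanned 17.5-fold, with a ratio to Obp1b of 1.24 to 1.93 and to Lcn11 of 5.09 to 8.01, and Obp2a over Obp2b ran from 1.69 to 3.85. Obp1a over Obp2a was looser, at 1.37 to 11.2 with the highest value in OVX 2, and Bpifb3 over Bpifb4, Bpifb3 over Scgb1c1 and Bpifb2 over Gp2 spanned 7.18-fold, 4.66-fold and 4.07-fold. Mup4, a major urinary protein gene that is no member, had a ratio to Obp1a of 0.320 to 0.474. Bpifb9b over Obp1a ran from 0.0929 to 11.4, a 123-fold range. The library highest in Bpifb9b, OVX 1, was second to Sham 3 in Obp1a, and OVX 2, second in Bpifb9b with 9057 CPM, had 2441 CPM of Obp1a.

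**Figure D5:**
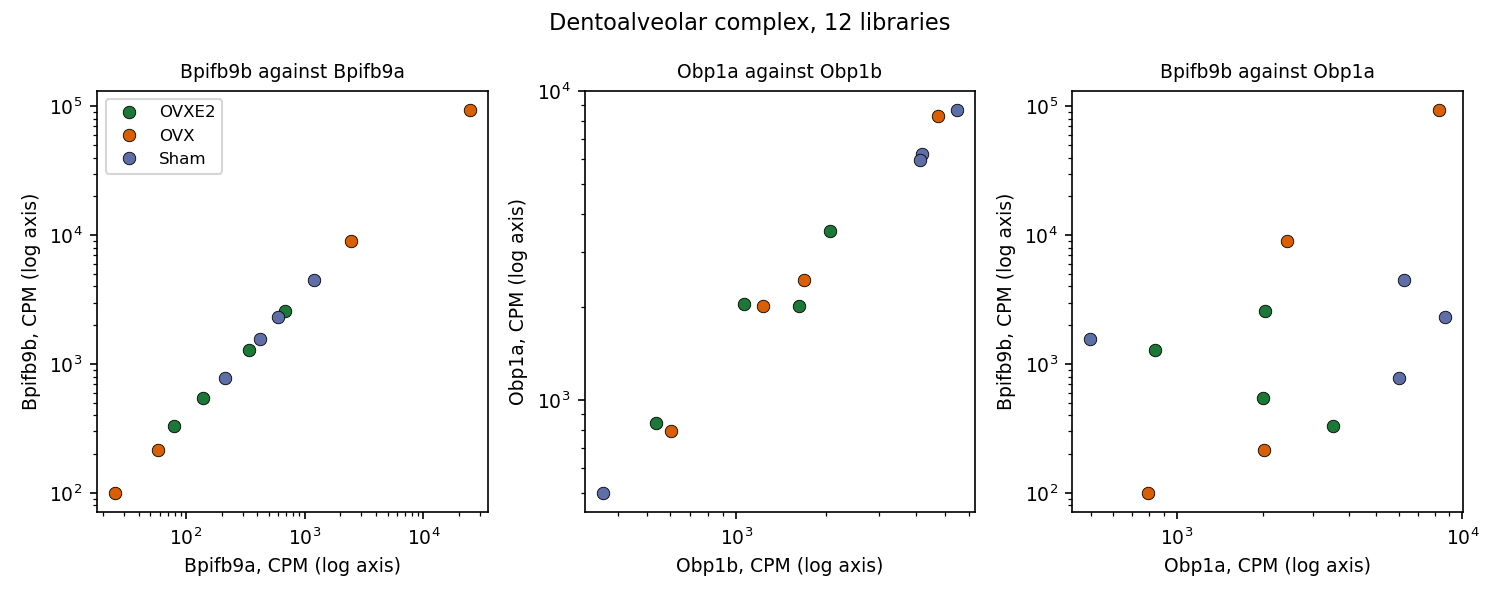
CPM in the 12 libraries of the dentoalveolar complex on log axes, coloured by group. Bpifb9b lies on a line against Bpifb9a (ratio 3.70 to 4.16; read assignment between these near copies is uncertain) and Obp1a against Obp1b (1.24 to 1.93), while Bpifb9b against Obp1a scatters over a 123-fold range of ratios.

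Further members peaked in other DAC libraries. Bpifb3, a BPI-fold gene first described from rat olfactory mucosa, had 64.7, 17.1, 9.87 and 14.9 CPM in OVXE2, 37.6, 387, 17.1 and 45.5 in OVX, and 12.04, 460, 70.3 and 13.9 in Sham. Scgb1c1 was likewise highest in OVX 2 and Sham 2, at 317 and 143 CPM. The 7 genes of olfactory neurons together held 0.0443% of counts in OVX 2 and 0.0609% in Sham 2, against 0.0453% in OVXE2 4 and 0.0112 to 0.0401% in the other 9. OVXE2 4, level with OVX 2 in that share, had 14.9 CPM of Bpifb3 and 18.3 CPM of Scgb1c1. Bpifa6 reached 913 CPM in OVXE2 2, against at most 44.4 CPM in the other 11, and Aqp8, Muc1, Muc5ac, Bpifb1 and Scgb3a1 were also highest there. All genes of the ciliated-cell list but Mlf1 and Tppp3 were highest in that library too. The summed share of the list, 0.0182%, lay within the 0.0123 to 0.0210% of the others. Tppp3, the most abundant gene in that sum, was lowest in that library, at 65.9 CPM against 77.6 to 161 in the others. Aqp3, Muc15 and Bpifc were highest in OVXE2 1, the library with the largest share of gingival epithelial counts of the DAC, 0.900%. The part of these cell types in the members' values was not tested.

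Markers of salivary acini and ducts outside the set were low in both tissues. Of 12 such genes, Prh1 and Klk1b22 were at 0 in all 24 libraries. Their summed share was 0.00228 to 0.0171% in the DAC and 0.000973 to 0.00433% in gingiva. Of these, 7 were tested between tissues, with a median log2 difference of 2.12 in Sham, 2.60 in OVX and 1.81 in OVXE2 (higher in the DAC). A wider list of 30 nasal and salivary secretion genes held 0.240 to 1.00% of counts in the DAC and 0.277 to 0.399% in gingiva. A few genes led these sums. In the DAC, Lyz2 had 839.5 to 2600 CPM, Mup4 176 to 3775, and Ltf, also a neutrophil granule gene, 285 to 962. In gingiva, Slpi had 1694 to 2833 CPM and Wfdc12 514.5 to 673. The sums are therefore not read as gland content. The highest DAC share of each list was in OVX 1. Pip had 50.2 CPM there against 0.288 to 22.8 in the other DAC libraries. Wfdc18, a secreted whey acidic protein, had 3250 CPM against 17.7 to 607. In gingiva Bpifb2 spanned 14.4-fold with a ratio to Gp2 of 1.38 to 1.68, and Muc5b spanned 13.4-fold with a ratio to Bpifb2 of 2.10 to 4.62. Gcnt3, a mucin-type glycosyltransferase, and Ern2, a stress sensor of mucous cells, spanned 15.7-fold and 24.5-fold there, with ratios to Muc5b that spanned 2.51-fold and 3.09-fold; the whole list of 17 gland cell genes they come from held 0.113 to 0.162% of counts. Bpifb2 over Dmbt1 spanned 10.4-fold. For genes of steady level the ratio varied more than the level: Bpifb3 over Bpifb4 spanned 2.499-fold against 1.68-fold for Bpifb3, Aqp3 over Muc15 1.64-fold and Aqp3 over Bpifc 1.37-fold against 1.32-fold for Aqp3.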

How the data were processed

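RNA was measured by paired-end poly(A) RNA-seq, per the labels' protocols. Per the submitters' processing notes, reads were handled with fastp, STAR and DESeq2 and build GRCm38 (mm10); the sources used here give no versions and no annotation. Each deposited value is a raw gene count, in 1 table per library, with columns for either strand and for each strand. The column holding most reads in every library was used; the other strand held 3.38 to 9.03%. Lines of reads assigned to no gene were left out (30.5 to 42.5% of the summed lines). GENCODE M21 gave symbols, exon lengths and coordinates.

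Low genes were removed with filterByExpr. TMM scaling and the quasi-likelihood test came from edgeR 4.0.16 (robust glmQLFit) in R 4.3.3, with Benjamini-Hochberg adjustment over 13617 genes in the DAC, 12680 in gingiva and 14209 in both; residual degrees of freedom were 9, 9 and 18. Filtering left 42, 31 and 43 members. CPM use each library's total. Alternatives were DESeq2 1.42.0, other scalings, no filter, either-strand counts, a replicate block, 2 groups only, each library left out, and 2 subsets of libraries chosen after seeing the data. The test was checked on simulated counts with the same spread for every gene and no outlying libraries. That check does not cover members that peak in a single library. Libraries of a group were not copies (chi-square per degree of freedom 16.7 to 359).

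Members and lists were chosen with earlier results of these data known. Named were members called (beyond 20, the 10 largest rises and falls), the 3 highest per kb of each family and tissue, those holding 1% of a library, and the 3 smallest p where none passed. Same-numbered libraries were not taken as pairs. Floors cover counting error only.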

Additional observations from a re-analysis of the deposited data

Results flagged for a closer look

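In 37 of 183 groups of 4 libraries looked at, 34 of them upward, 1 library lay so far from the other 3 that its gap took up most of the group's range. The cut-off is set to flag about 1 in 20 groups if values are independent and normally distributed. These CPM values were not shown to be so, and members such as Bpifb9a and Bpifb9b vary together. The count is therefore not read against chance. In the dentoalveolar complex, OVXE2 1 stood apart from the rest of its group for Bpifb3 at 64.7 CPM (others 9.87 to 17.1) and Scgb1c1 at 55.0 CPM (others 11.6 to 18.3). OVXE2 2 of the dentoalveolar complex stood apart from the rest of its group for Bpifa6 at 913 CPM (others 0.879 to 19.2), Muc1 at 27.7 CPM (others 3.08 to 7.14) and Scgb3a1 at 1.63 CPM (others 0.331 to 0.440). In the dentoalveolar complex, OVX 1 stood apart from the rest of its group for Bpifa5 at 8.002 CPM (others 0.280 to 0.739), Bpifb5 at 1219 CPM (others 2.34 to 129), Bpifb9a at 24604 CPM (others 25.2 to 2430), Bpifb9b at 94311 CPM (others 99.3 to 9057), Dmbt1 at 240 CPM (others 1.74 to 20.3), Pigr at 231 CPM (others 3.42 to 23.6), Scgb2b2 at 2.23 CPM (others 0.0400 to 0.376) and the summed share of all members at 14.2% (others 0.405 to 1.94%). OVX 2 of the dentoalveolar complex stood apart from the rest of its group for Bpifb3 at 387 CPM (others 17.1 to 45.5) and Scgb1c1 at 317 CPM (others 19.2 to 41.2). In the dentoalveolar complex, OVX 3 stood apart from the rest of its group for Aqp9 at 4.72 CPM (others 8.21 to 8.53, so low here), Bpifb2 at 86.8 CPM (others 4.64 to 12.9), Gp2 at 63.9 CPM (others 6.87 to 12.4) and Muc5b at 416 CPM (others 33.9 to 74.2). Sham 1 of the dentoalveolar complex stood apart from the rest of its group for Lpo at 1.20 CPM (others 0.0942 to 0.203), Scgb1b2 at 20.1 CPM (others 0.690 to 2.17) and Scgb2b2 at 19.9 CPM (others 2.21 to 2.94). In the dentoalveolar complex, Sham 2 stood apart from the rest of its group for Bpifb3 at 460 CPM (others 12.04 to 70.3) and Lcn4 at 5.08 CPM (others 0 to 0.184). Sham 3 of the dentoalveolar complex stood apart from the rest of its group for Aqp3 at 19.6 CPM (others 37.5 to 38.6, so low here) and Lcn3 at 14.8 CPM (others 8.12 to 9.24). In the dentoalveolar complex, Sham 4 stood apart from the rest of its group for Bpifa5 at 2.07 CPM (others 0.0942 to 0.271).

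In gingiva, OVXE2 1 stood apart from the rest of its group for Lpo at 28.1 CPM (others 8.10 to 11.3). In gingiva, OVXE2 2 stood apart from the rest of its group for Bpifa6 at 2.01 CPM (others 0 to 0.0818) and Bpifb1 at 10.2 CPM (others 3.39 to 4.13). In gingiva, OVXE2 3 stood apart from the rest of its group for Dmbt1 at 327 CPM (others 63.3 to 92.9). In gingiva, OVXE2 4 stood apart from the rest of its group for Bpifb9a at 10.5 CPM (others 1.03 to 1.64). In gingiva, OVX 1 stood apart from the rest of its group for Scgb2b27 at 4.87 CPM (others 3.10 to 3.32). In gingiva, OVX 2 stood apart from the rest of its group for Aqp3 at 1097 CPM (others 1273 to 1278, so low here). In gingiva, Sham 2 stood apart from the rest of its group for Bpifa1 at 3.43 CPM (others 0.350 to 0.692), Obp2b at 1.64 CPM (others 0.9999 to 1.09) and Scgb1c1 at 1.40 CPM (others 0.0769 to 0.10004).

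Muc5ac differed between OVX and Sham in opposite directions in the tissues: all 4 OVX libraries of the dentoalveolar complex were above all Sham ones, and all 4 of gingiva below. The difference of the log2 effects was 4.10, with an adjusted p of 0.575 (edgeR), so it did not pass.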

How the results depend on the processing

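Within each tissue, edgeR called 0 members under every alternative and with each library left out (0 to 0), except as follows. DESeq2 called 3 members for OVX against Sham, 5 for OVXE2 against OVX and 3 for OVXE2 against Sham in the dentoalveolar complex, and 2 for the tissue difference of OVXE2 against OVX. Of all genes it called 10, 598, 340 and 114 in these comparisons. Without OVX 1 and Sham 2 of the dentoalveolar complex, a choice made after seeing the data, 1 member was called for OVXE2 against OVX, Lcn2 (log2 -0.95, adjusted p 0.0485, edgeR); over its 21 alternatives the adjusted p ran from 0.00555 to 0.397. Among libraries with over 5% of reads on the other strand, also chosen after seeing the data, Bpifb5 turned to 2.82 for OVXE2 against OVX and the tissue difference of Bpifb9b to 1.56. That choice leaves out OVX 1 and OVX 2 of the dentoalveolar complex, with 94311 and 9057 CPM of Bpifb9b. It keeps OVX 3 and OVX 4, with 99.3 and 216 CPM. Lcn4 kept its direction between tissues in OVXE2 there and missed the threshold. The cause was not tested. Between tissues, leaving out 1 library gave 32 to 36 members in Sham, 33 to 35 in OVX and 35 to 40 in OVXE2, and the other settings 31 to 38, 29 to 34 and 32 to 39. Same-numbered libraries deviated together, with a correlation over 0.1, in 5 of 12 pairs of the dentoalveolar complex and 3 of 12 of gingiva, so the numbers were not taken as pairing; with the replicate block 0 members were called within a tissue and 35, 34 and 39 between tissues in Sham, OVX and OVXE2. Of 2598 values of named genes under alternatives, 2584 kept direction and side of the threshold.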
